A study of Mus musculus with 12 samples.

Results

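Keratin genes were taken as every row of the deposited table whose gene symbol starts with Krt followed directly by a number, which leaves out the keratin-associated Krtap genes. The rule found 34 of 5764 genes, 20 type I and 14 type II keratins. The RNA came from hypothalamic tissue enriched for the arcuate nucleus of POMCRiboTag mice, which carry a tagged ribosomal protein so that ribosomes of pro-opiomelanocortin (POMC) neurons can be pulled down with an antibody to the HA tag. All mice had fasted for 16 h and spent 1 h getting used to the room. The labels give the same zeitgeber time (hours after lights on) for both groups, 6 ± 1 h. In the NEO group (6 libraries) wooden dowel pins in wire mesh, an object that cannot be eaten or reached, were then shown for 10 min. In the SENS group (6 libraries) standard chow in mesh, which could be seen and smelled but not eaten, was shown for the same time. The labels give the genotype as POMCRiboTag in both groups and name neither the driver of the tag nor the age of the mice, nor whether each library is 1 mouse. P-values therefore reflect just how far these libraries differ among themselves, and that spread may be technical. No library of input RNA or of mice without the tag was analysed here, so RNA that sticks to the beads cannot be told apart from RNA of the tagged cells. None of the 7 POMC neuron markers listed (among them Pomc and Cartpt) is analysed here, so the labelled cell type could not be checked.

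Keratins are the intermediate filament proteins of epithelia. A type I (acidic) keratin pairs with a type II (basic to neutral) keratin, and the pair polymerises into the filaments that anchor at desmosomes. Simple and stratified epithelia, the inner root sheath around a growing hair and the hair shaft itself each use their own pairs. In the mouse most type I genes lie together on chromosome 11 and the type II genes on chromosome 15, and in adult brain neurons their place is taken by neurofilaments. Every type I row of the table was placed on chromosome 11, and every type II row with a match (all but Krt85) on chromosome 15. RefSeq lists Krt74 as a transcribed pseudogene. Of the 54 keratins in the class lists, 34 were in the table. The rest, with Krt8, Krt18, Krt10 and Krt1 among them, are not analysed here.

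The keratins with reads in the most libraries were the neighbouring type I genes of the inner root sheath, Krt27 (chromosome 11, 99345565 to 99351118, GRCm38) and Krt28 (99365007 to 99374903). Krt26 (99328484 to 99337965) adjoins them. The 250 bases before the start of these 3 genes are shown because the genes stand side by side and are the type I inner root sheath keratins of the table. The sequences are from RefSeq (GRCm38.p6, minus strand), 5′ to 3′, with TATAAA and CTTTGA, on either strand, in capitals.
Krt26, chr11:99337966-99338215: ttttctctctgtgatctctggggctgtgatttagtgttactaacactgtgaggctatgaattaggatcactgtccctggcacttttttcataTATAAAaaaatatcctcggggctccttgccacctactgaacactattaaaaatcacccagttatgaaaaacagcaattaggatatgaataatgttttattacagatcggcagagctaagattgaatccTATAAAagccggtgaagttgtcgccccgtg
Krt27, chr11:99351119-99351368: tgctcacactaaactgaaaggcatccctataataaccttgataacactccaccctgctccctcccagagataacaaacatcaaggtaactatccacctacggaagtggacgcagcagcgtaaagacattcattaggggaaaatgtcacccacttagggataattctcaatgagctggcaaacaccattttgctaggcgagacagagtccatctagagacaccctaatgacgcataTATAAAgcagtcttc
Krt28, chr11:99374904-99375153: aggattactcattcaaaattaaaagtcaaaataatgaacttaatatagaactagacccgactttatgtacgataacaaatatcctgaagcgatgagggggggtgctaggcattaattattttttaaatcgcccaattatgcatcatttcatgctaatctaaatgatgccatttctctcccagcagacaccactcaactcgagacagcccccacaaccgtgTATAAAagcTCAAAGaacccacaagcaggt
The TATAAA nearest the gene began 30 bases before the annotated start in Krt26 and Krt28 and 15 bases before it in Krt27. TATA elements place the start of transcription. In Krt28, CTTTGA, the core bound by LEF and TCF factors, lay on the opposite strand and began 21 bases before the start. Promoters were found for 23 of the 34 keratins (24 promoters). TATAAA was present on either strand in 11 of these 24 (45.8%), against 12.4% of all 32851 promoters of the same length. CTTTGA was present in 6 (25.0%), against 13.8% of all. The AP-1 site TGANTCA was present in 2, both of the oral epithelial keratin Krt13 (8.33%, against 6.75%). Matches of the motifs were allowed to overlap, and no match in this window says only that the letters are not in it.

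Values are read counts scaled to the total of each column of the table (CPM). The table is one of low counts: over all 12 libraries a gene had a median of 9 reads and at most 171, and no keratin had more than 74. Every CPM here is therefore a share of the reads of these low genes, not of all RNA of a library. The table held few reads, between 6901 and 11139 per NEO library and between 8619 and 18299 per SENS library, and a single read (1 read) stood for 54.6 to 145 CPM. Keratins held 323 of 51054 NEO reads and 303 of 78624 SENS reads. Each library had between 3 and 17 keratins above 0, with a median of 10.5 in NEO and 8 in SENS. Of the 34 keratins, 28 had reads somewhere. The remaining 6 were Krt5, the basal cell partner of Krt14, and the type I hair keratins Krt31, Krt33b, Krt35, Krt36 and Krt39. A total of 0 allows up to 3 reads, or 58.8 CPM over the NEO libraries and 38.2 CPM over the SENS libraries, counting error only. Type I keratins were found in all 12 libraries and type II keratins in 11, the exception being SENS 3.

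**Figure D1:**
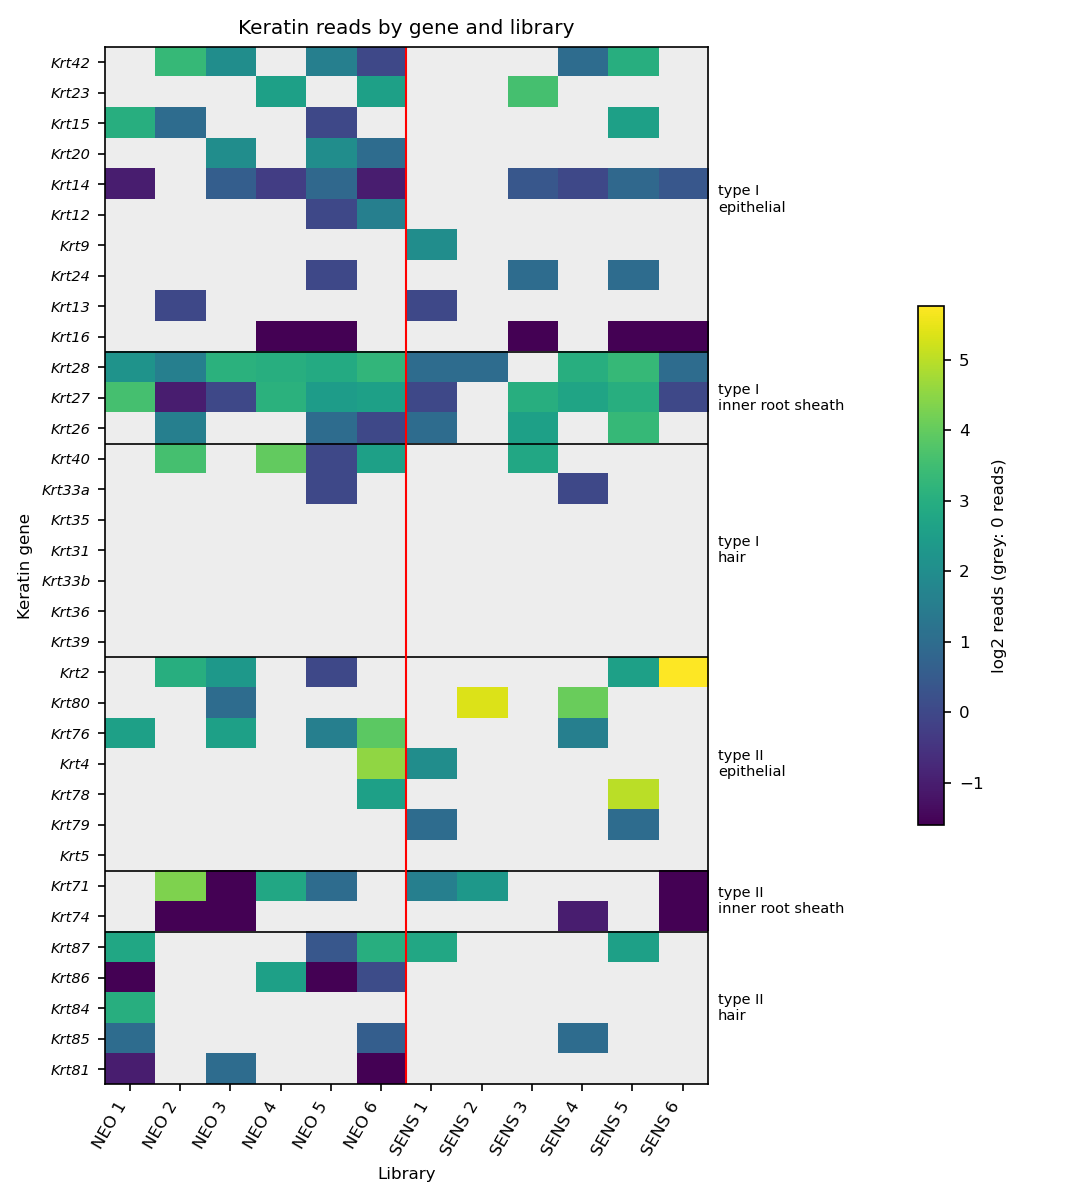
Reads of each of the 34 keratins (rows, by class) in each of the 12 libraries (columns, NEO left and SENS right of the red line), as log2 reads, with 0 in grey. Krt27 and Krt28 are filled in 11 of 12 libraries each, 5 type I hair keratins and Krt5 in none.

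No keratin passed the test of SENS against NEO. Limma on log2(CPM + 1) called 0 of 28 keratins and 0 of 5141 genes (0% of all genes tested), where a Benjamini-Hochberg adjusted p under 0.05 was needed. The lowest adjusted p of any keratin in limma was 0.745. At an unadjusted p under 0.05 there were 3 keratins, Krt28, Krt86 and Krt20, all with lower values in SENS. Of all genes tested 3.68% passed at that level, 1.85% with lower and 1.83% with higher values in SENS. The log2 fold change was below 0 for 20 of 28 keratins (71.4%), against 43% of all genes. Without the filter on low values, which adds genes at 0, these shares were 58.8% of 34 keratins and 38.4%. The median was −1.34 for keratins and 0.39 for all genes (−0.69 and 0.040 without the filter), and the keratin median was −0.82 without NEO 6 and −0.68 without SENS 2. On the log2(CPM + 1) scale of these fold changes a library at 0 weighs heavily. With a pseudocount of 100 CPM, about the worth of 1 read, the median of the keratins was −0.39, and the log2 fold change was −1.42 for Krt28, −1.22 for Krt20 and −0.89 for Krt86. The median SE of a keratin was 2.05, larger than the median change. The CPM of the groups overlapped in all 28 keratins tested, while 0.0973% of all genes had groups free of overlap. The class lists and the keratins themselves were chosen with results of these libraries known, so these counts, and the summed levels of classes given with each class, have no test of their own.

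**Figure D2:**
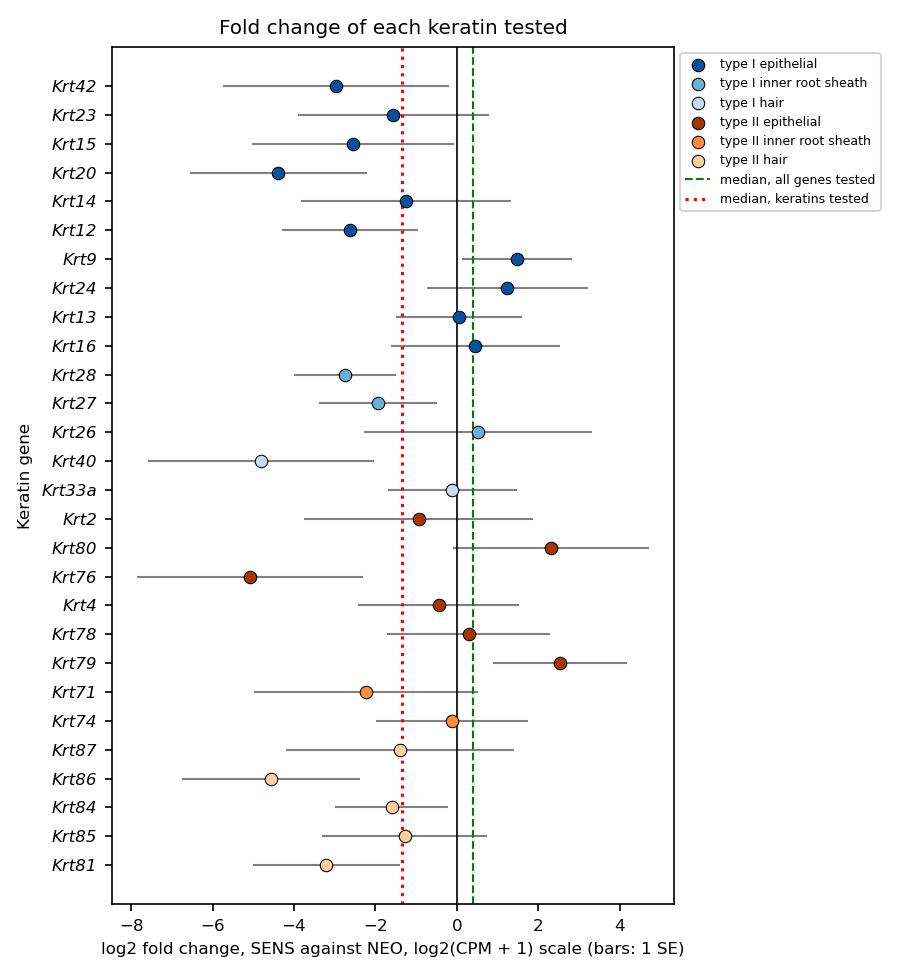
Log2 fold change of each tested keratin (x axis, SENS against NEO, log2(CPM + 1) scale, bars 1 SE), coloured by class, with the medians of keratins (dotted, −1.34) and of all genes (dashed, 0.39). All 7 hair keratins lie below 0 (Krt33a at −0.105, with 1 read in each group), and the 16 epithelial keratins lie on both sides. Krt81, Krt84 and Krt86 had no read in SENS and could only lie below 0.

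Of the inner root sheath keratins, Krt27 and Krt28 had reads in 11 of 12 libraries each. Krt28, a type I keratin of this sheath, had 269 CPM at the lowest, 1051 at the median and 1227 at the highest in NEO. In SENS it had 0, 180.2 and 831 CPM. In SENS, libraries 1, 2, 3 and 6 lay below every NEO library, while SENS 4 and 5 lay within the NEO range. In reads, NEO 1 to 6 held 4.5, 3, 8.5, 8, 7.5 and 9.5, and SENS 1 to 6 held 2, 2, 0, 8, 10 and 2. Limma gave Krt28 a log2 fold change of −2.75 (SE 1.25; unadjusted p = 0.0303, adjusted p = 0.745), and it was −1.39 without SENS 3, the library at 0.

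Krt27, whose mutation gives mice a wavy coat, had 44.9, 786 and 1173 CPM in NEO (lowest, median and highest) and 0, 358 and 664 CPM in SENS. The groups overlapped, since NEO 2 and NEO 3 were among the low libraries, and 4 NEO libraries lay above every SENS library. In limma it had a log2 fold change of −1.94 (SE 1.46; adjusted p = 0.745), and −0.59 without SENS 2. Krt26 had 0, 64.6 and 289.8 CPM in NEO against 0, 116 and 831 CPM in SENS, with 3 libraries above 0 in each group. Its log2 fold change of 0.52 had no stable sign: it was −0.26 without NEO 1, NEO 3 or NEO 4, −0.18 without SENS 1, −0.37 without SENS 3 and −0.54 without SENS 5.

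Among the type II partners, Krt71, which pairs with these type I keratins in the inner root sheath, had 0, 168 and 1825 CPM in NEO against 0, 9.02 and 348 CPM in SENS. NEO 2 held 20.33 of its 37.99 reads. In limma it had a log2 fold change of −2.22 (SE 2.75; adjusted p = 0.765), and it ranged from −3.37 to −1.20 as libraries were left out, with −3.37 without NEO 1 or NEO 6, −1.41 without NEO 4 and −1.20 without NEO 2. The pseudogene Krt74 had only fractions of a read, 0.33 or 0.5, in 4 libraries.

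Summed over the 5 inner root sheath keratins, the level was between 1421 and 2981 CPM in NEO (median 2284) and between 200.0 and 2326 CPM in SENS (median 989). Of the SENS libraries, 5 were below the lowest NEO library, and SENS 5 was within the NEO range. SENS 4 (1397 CPM) was below NEO 3 (1421 CPM) by less than the worth of 1 read. The mean was 2174 ± 581 CPM for NEO against 1058 ± 754 CPM for SENS (SD, n = 6 each). The difference of −1116 CPM lay between −1370 and −944 CPM as each library was left out. Krt27, Krt28, Krt71 and Krt74, the members with lower means in SENS, all had fractional reads, so their levels are uncertain. Krt26, with whole reads only, had a mean of 115 CPM in NEO and 252 CPM in SENS.

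**Figure D3:**
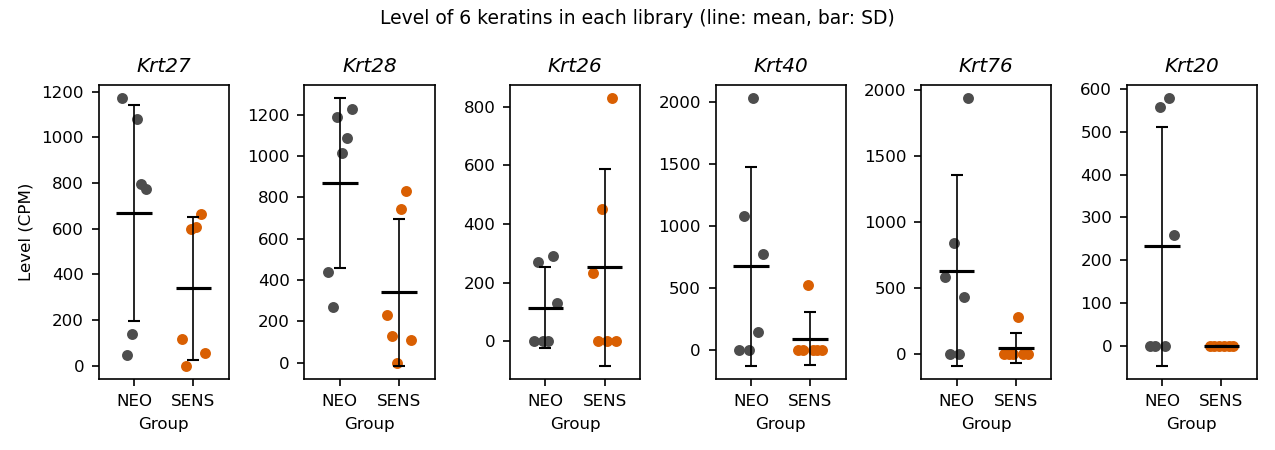
Level in CPM (linear y axes, each panel with its own scale) of 6 keratins in the 6 NEO and 6 SENS libraries, 1 point a library, with the mean (line) and SD (bar). Krt27 and Krt28 have points above 0 in nearly every library of both groups, whereas Krt40, Krt76 and Krt20 have most or all SENS points at 0. In NEO, Krt40 and Krt76 are above 0 in 4 libraries each and Krt20 in 3. Krt80, Krt2 and Krt78, each highest in a SENS library, are not shown.

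Hair keratins, which build the hair shaft, were found mainly in NEO, with 74.3 reads there and 23 in SENS. Of the 12 hair keratins, the 7 with reads all had log2 fold changes below 0, against 43% of all genes tested. Krt81, Krt84 and Krt86 had no read in SENS, so their fold changes could only be below 0. The shared sign is therefore not a result for the class. Krt40, a type I keratin of the hair cuticle, had 0, 459.8 and 2029 CPM in NEO against 0, 0 and 525 CPM in SENS. It had reads in 4 NEO libraries (2, 4, 5 and 6) and 1 SENS library (SENS 3). In limma it had a log2 fold change of −4.80 (SE 2.78; adjusted p = 0.745), and −1.62 with a pseudocount of 100 CPM. Krt33a, a type I keratin of the hair cortex, had 1 read in NEO 5 and 1 in SENS 4. Its log2 fold change of −0.105 reflects only what 1 read was worth, 145 CPM in NEO 5 and 93.1 CPM in SENS 4.

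Among type II hair keratins, Krt86 had 0, 40.0 and 761 CPM in NEO and no read in SENS. Its reads were 0.33 in NEO 1, 6 in NEO 4, 0.33 in NEO 5 and 1.08 in NEO 6, so 1 library held most of them. The pooled NEO level was 3.97 times the SENS limit of 3 reads, but without NEO 4 the NEO libraries held 1.74 reads, which is under that limit. Limma gave Krt86 a log2 fold change of −4.56 (SE 2.18; unadjusted p = 0.0395, adjusted p = 0.745). Krt87 had 16.24 reads in NEO and 13 in SENS, Krt85 3.5 and 2, and Krt81 2.83 and 0. Krt84, a type II keratin of the tongue, had 8 reads, all in NEO 1.

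The summed level of the hair keratins was between 279.7 and 2790.3 CPM in NEO (median 1402) and between 0 and 812 CPM in SENS (median 389). In NEO, 4 libraries were above the highest SENS library, and NEO 3 and NEO 5 were within the SENS range. Means were 1433 ± 978 and 352 ± 321 CPM (SD, n = 6 each), and the difference of −1080 CPM lay between −1311 and −809 CPM as each library was left out. The type I part of it depended on NEO 4, and was −592 CPM with and −325 CPM without it. The type II part was −488 CPM, and −291 CPM without NEO 1.

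Type I keratins of simple and stratified epithelia had 6 of 10 log2 fold changes below 0 (median −1.41). Krt20, of intestinal and urothelial cells, had 0, 129 and 579.6 CPM in NEO and no read in SENS. Its 10 NEO reads were 4 in NEO 3, 4 in NEO 5 and 2 in NEO 6, and the pooled NEO level was 5.13 times the SENS limit. That limit takes each read as independent, which was not tested, and these reads came only in even numbers. Limma gave Krt20 a log2 fold change of −4.39 (SE 2.17; unadjusted p = 0.0465, adjusted p = 0.745). In NEO, 3 libraries were at 0 as well, so the groups overlapped.

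Krt42, a mouse type I keratin of nail and skin, had 0, 282 and 898 CPM in NEO against 0, 0 and 664 CPM in SENS (log2 fold change −2.97, SE 2.79, limma adjusted p = 0.745). Krt14, the keratin of basal keratinocytes, had 0, 84.9 and 265 CPM in NEO against 0, 82.9 and 152 CPM in SENS. Its medians were close, and its 9 values above 0 never passed 1.83 reads. In limma Krt14 had a log2 fold change of −1.25 (SE 2.59; adjusted p = 0.868), −2.39 without NEO 2, −0.78 without NEO 5 and −0.36 without SENS 1 or SENS 2. Krt15, of basal cells and the hair bulge, had 11 reads in NEO and 6 in SENS. Krt23 had 12 reads in each group, and all 12 SENS reads were in SENS 3.

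The other 5 had few reads. Krt12 of the cornea had 4 in NEO and 0 in SENS, and Krt9 of palms and soles 0 and 4. Krt24 had 1 and 4, Krt13 1 and 1, and Krt16 of injured epidermis 0.66 and 0.99. The summed level of these type I epithelial keratins was 1268 ± 374 CPM for NEO against 605 ± 613 CPM for SENS (SD, n = 6 each). In SENS, 4 libraries were below the lowest NEO library, and SENS 3 and SENS 5 were inside the NEO range.

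Type II keratins of epithelia held 75 reads in NEO and 161 in SENS, and 3 of 6 had log2 fold changes below 0 (median −0.075). Whether this class differs from the others was not tested. Krt2, of the upper epidermis, had 0, 72.5 and 718 CPM in NEO against 0, 0 and 2951 CPM in SENS, with 54 of its 74 reads in SENS 6. Its mean CPM was higher in SENS (575 against 260.4) while limma gave it a log2 fold change of −0.94 (SE 2.82; adjusted p = 0.937), a sign that turned without NEO 2 (0.087) or NEO 3 (0.079). Krt80, found in many epithelia, had 2 reads in NEO 3, 41 in SENS 2 and 17 in SENS 4. In limma Krt80 had a log2 fold change of 2.31 (SE 2.40; adjusted p = 0.745), 3.67 without NEO 3, 0.77 without SENS 2 and 0.92 without SENS 4.

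Krt76, of the palate and other oral epithelium, had its reads mainly in NEO. It had 0, 511 and 1937 CPM in NEO, where 4 libraries were above 0, and 0, 0 and 279.4 CPM in SENS, where SENS 4 was the only one. In limma it had a log2 fold change of −5.08 (SE 2.77; adjusted p = 0.745), and −1.81 with a pseudocount of 100 CPM. Krt4, of the oesophagus, had 23 reads in NEO 6 and 4 in SENS 1. Its pair partner Krt13 shared SENS 1 with it but not NEO 6. Krt78 had 6 reads in NEO 6 and 32 in SENS 5, and Krt79 had 2 in SENS 1 and 2 in SENS 5.

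The summed level of type II epithelial keratins was between 0 and 5681 CPM in NEO (median 652) and between 0 and 3322 CPM in SENS (median 2246). The groups overlapped widely. The difference of the means was 346 CPM, and it ran from 33.6 CPM without NEO 4 to 1170 CPM without NEO 6. It was also more than 1.5 times smaller or larger without NEO 1 (151), NEO 2 (177), NEO 5 (149.6), SENS 1 (589), SENS 2 (202), SENS 3 (728), SENS 5 (64.0) or SENS 6 (138).

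Over all type I keratins the level was 3617 ± 1105 CPM for NEO against 1641 ± 1448 CPM for SENS (SD, n = 6 each). The difference of −1976 CPM lay between −2414 and −1673 CPM with each library left out. For type II keratins it was 2822 ± 2160 and 2285 ± 1322 CPM, and the difference of −537 CPM turned to 318 CPM without NEO 6 and was −80.4 CPM without SENS 3, −844 CPM without SENS 5 and −879.8 CPM without NEO 5. Whether the 2 types differ in their response was not tested.

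**Figure D4:**
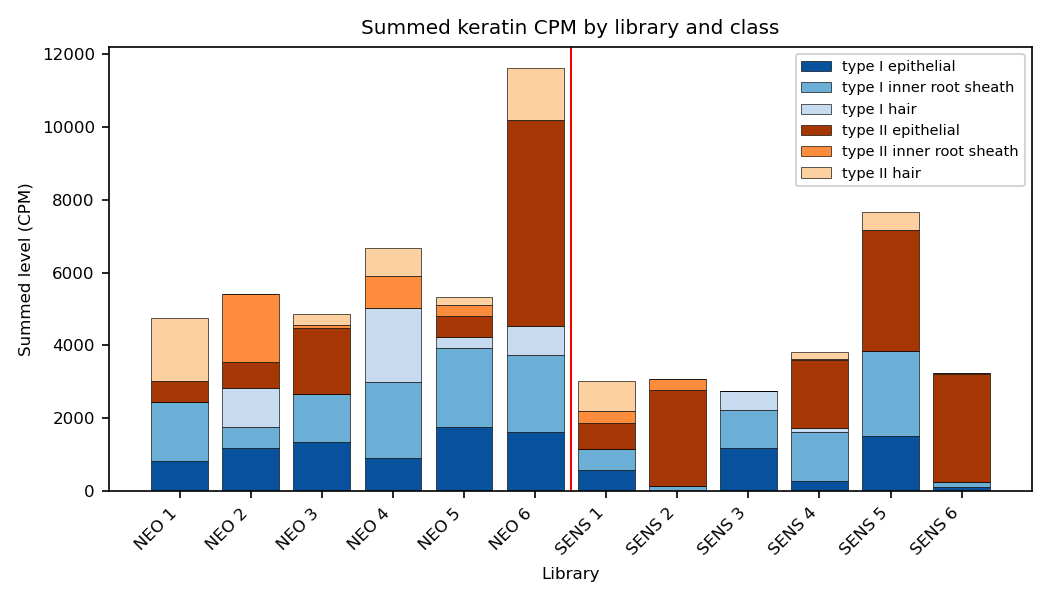
Summed CPM of the keratins in each library (bars from 0, stacked by class, NEO left and SENS right of the red line). NEO 6 (11619 CPM) and SENS 5 (7654 CPM) are the highest of their groups, with 5681 and 3322 CPM of type II epithelial keratins, and SENS 2 and SENS 6 have little of the type I classes.

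All keratins together were lowest in SENS 3 (2748 CPM) and highest in NEO 6 (11619 CPM). The median was 5368 CPM in NEO against 3160.3 CPM in SENS, and 5 of 6 SENS libraries lay below the lowest NEO library (4755 CPM). The difference of the means was −2513 CPM. It was −1477 CPM without NEO 6. The labels carry library numbers in 3 ranges. The difference was −1739 CPM in numbers 1046 to 1050 (1 library a group) and −2427 CPM in 1062 to 1074 (3 a group). It was −3029 CPM in 1103 to 1116 (2 a group). In this last range the sign rested on NEO 6, since the SENS mean was 5448 CPM and NEO 5 had 5335 CPM. Keratin reads were similar in number in both groups while all reads of the table were more numerous in SENS. A lower keratin CPM can therefore not be told apart from more reads in other genes of this table, nor fewer cells of a type from less RNA per cell.

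Many keratins are close copies of each other. Fractional reads, of the kind left where 1 read is split between genes (their origin was not tested), made up 31.1% of the 119 keratin values above 0, against 18.8% of those of all genes. They occurred in 10 of 28 keratins (35.7%), against 22.7% of all genes with reads. The 10 were Krt14, Krt16, Krt27, Krt28, Krt71, Krt74, Krt81, Krt85, Krt86 and Krt87. In Krt16 and Krt74 every value above 0 was fractional. Levels of these 10 are uncertain, since such sharing cannot be undone from the table. Log2 fold changes were below 0 for 9 of these 10 (median −1.67) and for 11 of the 18 keratins with whole reads only (median −0.69). With the latter alone, the difference in summed CPM was −852 CPM.

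Other genes of epithelia and hair were also in the table. Keratin-associated proteins, the matrix of the hair shaft, had 4 of 6 log2 fold changes below 0 (median −1.02), and none was called. Krtap16-1 had 43 reads in each group, and Krtap2-4 had 5, all in NEO 1. Cornified envelope genes had 3 of 7 below 0 (median 0.29), with the transglutaminases Tgm3 (15 and 32 reads in NEO and SENS) and Tgm1 (11 and 13). Desmosome genes, to which keratin filaments attach, had 2 of 5 below 0 (median 1.30). The plakophilin Pkp1 had 82 reads in SENS, of which SENS 6 held 66, and none in NEO, and the desmocollin Dsc1 had 25 and 22. Transcription factors of hair and epidermis had 5 of 13 below 0 (median 0.93), with Zfp750 at 52 and 76 reads and Ehf at 37 and 48. Limma called 0 genes of these lists, and 0 had an unadjusted p under 0.05. None of 18 other intermediate filament genes, such as Vim and Nefl, is analysed here.

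Markers of epithelial cells were 5 of 12 in the table, with Cldn4 at 0 and Cldn3, Esrp1, Esrp2 and Grhl2 above 0. Their summed level was between 129 (NEO 6) and 4335 CPM (NEO 3) in NEO, with a median of 766, and between 0 (SENS 6) and 2794 CPM (SENS 4) in SENS, with a median of 622. Epcam, Cdh1 and Trp63 are not analysed here. Pituitary markers (6 of 9 in the table, none at 0 throughout) ran from 380.5 to 2797 CPM in NEO and from 64.1 to 9796 CPM in SENS, and blood cell markers (4 of 8) from 391 to 2174 and from 834 to 4236 CPM. Of 6 markers of meninges and fibroblasts only Col14a1, a collagen of fibroblasts, was in the table. It was above 0 in 3 NEO and 6 SENS libraries, with 0, 139.8 and 1759 CPM in NEO against 186, 1102 and 1989 CPM in SENS. Limma gave Col14a1 a log2 fold change of 5.13 (SE 1.79; unadjusted p = 0.0051, adjusted p = 0.745), a higher level in SENS and a smaller unadjusted p than that of any keratin. It was the only one of 15 markers tested with an unadjusted p under 0.05. The part of any of these cells in the keratin values was not tested.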

How the data were processed

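Per the labels' protocols, cDNA was made from 0.5 ng of RNA with a low-input kit and made into libraries by tagmentation. The authors deposited 1 table of CPM values for 5764 genes in 12 library columns. Per the submitters' processing notes, FastQC, HISAT2, featureCounts and edgeR were among the tools, and the builds were GRCm38 and mm10. Not given in the sources used here were the versions and roles of the tools, the strand setting, the gene filter and the rule for shared reads. Reads were recovered by dividing each column by its most frequent value above 0. On that scale every value fell on hundredths of reads (within 0.0002), and 81.2% were whole (within 0.005). No count model was run. The full depth of a library is unknown, and the labels name no molecular identifiers.

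SENS was compared with NEO with limma 3.58.1 in R 4.3.3 on log2(CPM + 1), with a variance trend, two-sided, for genes averaging 1 CPM or more, adjusted by Benjamini-Hochberg over all genes. Alternatives were pseudocounts of 10 and 100 CPM, no filter and a minimum of 100 CPM, blocks for replicate number or number range, quantile scaling, no trend, and each library left out. The keratins and all lists were chosen with earlier results of these data known. Values were given for up to 12 keratins (those in at least 6 libraries, then by mean CPM) and for those with an unadjusted p under 0.05; from other lists the 2 members with the highest mean were named. RefSeq (GRCm38.p6) matched 33 of 34 keratins. Transcript lengths were not used, so levels of different keratins are not ranked.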

Additional observations from a re-analysis of the deposited data

Results flagged for a closer look

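In groups of 6, a library was singled out when its gap to the nearest other library was above Dixon's 95% critical share of the group's range. Chance gives this in about 1 group in 20 for normally distributed values, a rate that does not carry over to counts with many zeros. The rule held for 6 of 24 groups of summed levels and for 23 of 49 groups of single keratins. For a gene with reads in 1 library of a group it holds by construction, as in most of the flagged keratin groups. The sums share genes, so their groups are not independent.

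The summed CPM stood apart in NEO 6 for all keratins (11619), type II (7100.1), epithelial (7295) and type II epithelial keratins (5681), in SENS 5 for all keratins (7654) and in SENS 3 for type I hair keratins (525).

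In NEO the keratins with 1 high library were Krt80 and Krt81 in NEO 3 (279.7 CPM each), Krt84 and Krt15 in NEO 1 (782 each), Krt13 in NEO 2 (89.8) and Krt86 in NEO 4 (761). The others were Krt12 (387), Krt4 (2969.7) and Krt78 (775) in NEO 6, and Krt33a and Krt24 in NEO 5 (145 each). In SENS they were Krt13 (116), Krt4 (464) and Krt9 (464) in SENS 1, Krt23 (899.6) and Krt40 (525) in SENS 3, and Krt85 (186), Krt33a (93.1) and Krt76 (279.4) in SENS 4. SENS 5 was the high library for Krt15 (498), Krt78 (2658) and Krt42 (664), and SENS 6 for Krt2 (2951).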

How the results depend on the processing

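No gene was called under any of the 20 alternatives (limma, 0 in each; 132 to 249 genes at an unadjusted p under 0.05). The keratin median of −1.34 stayed below 0 in all 19 alternatives run for it, from −1.94 (minimum of 100 CPM) to −0.39 (pseudocount of 100 CPM), and from −1.85 to −0.68 with each library left out. It was −0.69 without the filter, −0.79 with a pseudocount of 10 CPM, −0.82 without NEO 6 and −0.68 without SENS 2. The median of all genes (0.39) moved to 0.040 without the filter, 0.052 with a minimum of 100 CPM, 0.081 and 0.24 with pseudocounts of 100 and 10 CPM, and lay between 0.29 and 0.72 with each library left out. Keratins with log2 fold changes below 0 numbered 12 of 15 with a minimum of 100 CPM (fewer genes tested), 20 of 34 without the filter (58.8%, against 38.4% of all genes), and 18 to 23 with each library left out. The summed difference lay between −3259 and −1477 CPM with each library left out. Of same-numbered libraries, 0 of 6 pairs correlated over 0.1 in their deviations from the group mean, and 2 of 12 libraries correlated best with their own number. What correlation paired libraries would give at counts this low was not tested, so this check cannot tell whether they were paired. The replicate block and the number range block each left the count of called genes at 0 (176 at an unadjusted p under 0.05). Both blocks hold equal numbers of NEO and SENS libraries, so the keratin median (−1.34) is the same by construction. These alternatives could not have moved that median. The summed difference (−2513 CPM) is likewise the same by construction with the replicate block. Among single keratins, Krt26 (0.52) turned sign and ranged from −0.54 to 1.40 with libraries left out, Krt2 from −2.56 to 0.087 (0.031 with a pseudocount of 100 CPM), Krt4 (−0.45) from −1.92 to 1.48, and Krt78 (0.30) from −1.60 to 1.90. The cause of these turns was not tested. At 1 read worth 54.6 to 145 CPM, levels below a few reads per library cannot be told from 0.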

Other observations

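Whole values of 2 or more reads were even in 51 of 67 keratin values (76.1%), against 54.9% of the 15054 such values of all genes. The single highest library held a median of 48.5% of the reads of a keratin and 50.0% of the reads of any gene with reads. Reads in 1 library only were seen for 2 of 28 keratins (7.14%), Krt84 and Krt9, against 23.8% of all genes with reads.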
